A study of Mus musculus with 24 samples.

Results

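The granins are acidic secretory proteins that are stored in dense-core vesicles, the large vesicles in which neurons and endocrine cells keep neuropeptides and hormones. The 6 genes described here are Chga and Chgb (chromogranins A and B), Scg2, Scg3 and Scg5 (secretogranins II, III and V) and Vgf (a granin inducible by nerve growth factor). They were taken by name from a table of 32962 genes, and all 6 were present in it. Chromogranins and secretogranin II aggregate with calcium in the trans-Golgi network, which helps vesicles to bud and to load their cargo, and they are themselves cut by proteases into smaller peptides. Scg3 binds membrane cholesterol and chromogranin A and helps to sort the aggregate into the vesicle. Scg5 is a chaperone of the convertase Pcsk2, which cuts peptide precursors, and Vgf is a precursor of several active peptides and responds to neurotrophins and to neuronal activity. In the spinal cord, neurons of the superficial dorsal horn, which receive pain, itch and temperature input, are known for their many neuropeptides.

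Nuclei came from the lumbar spinal cord of 24 ICR/CD-1 mice of both sexes, aged 8 to 11 weeks, an outbred stock, with the dorsal root ganglia removed. The sources used here name no transgene or mutation, and the labels' tissue field says brain where the protocol and the title say spinal cord. There were 9 control mice, 10 formalin mice that received 30 µl of 2% paraformaldehyde in the sole of both hindpaws, and 5 rotarod mice kept walking by a turning rod whose speed rose to 40 rotations per minute within 5 minutes. The stimulated mice were first habituated, and the sources used here do not give the time from stimulus to dissection. Single nuclei were profiled by Drop-seq, in which droplets and barcoded beads give every captured RNA a unique molecular identifier (UMI), so the values below count nuclear RNA and not RNA of the whole cell. Levels are given in CPM, the UMIs of a gene per 1000000 UMIs of the same cells in the same mouse.

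The authors' annotation put 13425 nuclei in 7 cell classes. Of these, 7103 were neurons, of which 4280 carried one of 43 population names. The first letters of a population name give its family, read here as dorsal, mid or ventral followed by excitatory or inhibitory (DE, DI, ME, MI, VE and VI), while VC and VM are kept as codes. Each mouse had between 549903 and 3243587 UMIs in all, and between 264921 and 2508457 in neurons. Neuronal markers summed to 38536 CPM in neurons, 7275 in oligodendrocytes and 6747 in astrocytes, which is 18.9% and 17.5% of the level in neurons. Markers of dorsal root ganglion neurons summed to 10.3 CPM in neurons. Control replicate 9 stood apart, with 5 oligodendrocyte and 6 astrocyte nuclei. The formalin mice resembled each other in pairs: in all 10, the mouse with the closest neuronal profile was the one whose number differed by 5 (mean correlation 0.238 over 7420 genes, against -0.146 for other formalin pairs). No cell barcode was shared within these pairs. Whether those pairs are separate animals is not stated. The permutation tests in neurons of all types and the fit of formalin against rotarod there were therefore repeated with each pair merged. The values given for families, for other classes and for counts of stimulated mice keep the 10 formalin samples separate.

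The 6 genes lie on 5 chromosomes of the mouse genome (GRCm38, GENCODE M21 annotation). Scg2 spans chr1:79434669-79440120 on the minus strand, Scg3 chr9:75643189-75684056 on the minus strand and Scg5 chr2:113776362-113829121 on the minus strand. Chga spans chr12:102554969-102565028, Chgb chr2:132781278-132795079 and Vgf chr5:137026392-137033351, all on the plus strand. Scg3 is overlapped by Gm37871, a gene on the opposite strand with 4 UMIs in the whole table, and no other member overlaps an annotated gene. Gene length differs between the members (5.45 kb for Scg2, 40.9 kb for Scg3 and 52.8 kb for Scg5), and nuclear RNA holds introns, so levels are compared between cell types for 1 gene and not between genes.

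The sequence before the start sites of the members was examined after Chgb and Scg2 were seen to vary together across the neuron populations described below. Any relation of this sequence to mRNA levels was not tested. RefSeq promoter sequence (GRCm38.p6) was matched for 5 of the 6 members and was searched on both strands, over the 250 bases before the RefSeq start, for the cAMP response element TGACGTCA. This element, to which CREB binds, was chosen because it is well known from granin promoters. It was present in Scg2 and Chgb and in none of the other 3 searched, and 508 of 32851 RefSeq promoters (1.55%) held it. Its core TGACG, which the full element contains on each strand, was present in all 5 and in 17.8% of all promoters. Only exact copies were counted, so a near match such as TGACGTAA in the Chga window below was left out. Vgf had no promoter sequence to search. The 30 bases around the matches closest to the start are shown, with the element or its core in capitals.

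Scg2: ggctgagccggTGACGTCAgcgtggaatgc

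Chgb: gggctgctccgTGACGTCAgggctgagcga

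Chga: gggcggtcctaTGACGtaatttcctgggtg

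Scg3: cgctgggtcgcTGACGccatcctcacgcct

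The Scg2 window is chr1:79440076-79440105 on the minus strand, with the element 68 to 61 bases before the RefSeq start. The Chgb window is chr2:132781559-132781588 on the plus strand, with the element 72 to 65 bases before the start. GENCODE M21 places the starts of these 2 genes 94 and 364 bases further upstream, so that each of these windows overlaps 1 annotated exon. The Chga window is chr12:102554886-102554915 on the plus strand, with the core 44 to 40 bases before the start, and the Scg3 window is chr9:75684068-75684097 on the minus strand, with the core 30 to 26 bases before it. In Scg5 the core lay 175 to 171 bases before the start. Neither TGANTCA, the AP-1 element (6.75% of promoters), nor TATAAA (12.4%) was found in any of the 5. These matches describe the letters in the window, and binding was not measured.

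Neurons held the most Scg2, Scg5, Chga and Chgb mRNA of the 5 large classes, but Scg3 was highest in astrocytes. The 5 genes other than Vgf passed the filter on low counts and were tested in control mice with edgeR, with the mouse as a block. The classes and families were drawn by the authors from the expression of the same nuclei, so the p-values of contrasts between them do not come from independent labels.

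Chga and Chgb, the proteins around which the granules condense, were clearly higher in neurons. Chga in neurons ranged from 59.2 to 153 CPM over the 24 mice, with a median of 92.8, and Chgb from 60.6 to 196, with a median of 119. In oligodendrocytes (23 mice with at least 10 nuclei) Chga ranged from 0 to 40.5 and Chgb from 0 to 74.3, and in astrocytes from 0 to 46.5 and from 0 to 93.7. All mice had more Chga in neurons than any mouse had in either glial class, while the Chgb ranges overlapped. Chga in neurons exceeded oligodendrocytes by 2.59 (log2, SE 0.31, adjusted p = 2.43e-13, edgeR), astrocytes by 2.28 (SE 0.35, adjusted p = 4.45e-09), meningeal and Schwann cells by 2.64 and endothelial and vascular cells by 2.57. The same log2 differences for Chgb were 1.87, 1.99, 2.51 and 2.88, and all 8 of these contrasts passed. The share of all 6020 tested genes called higher in neurons was 31.7% against oligodendrocytes, 29.4% against astrocytes, 30.0% against meningeal and Schwann cells and 34.3% against endothelial and vascular cells.

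Scg2, the precursor of secretoneurin, had a neuronal range of 44.2 to 195 CPM and a median of 90.4. Its values ran from 6.10 to 82.2 in oligodendrocytes and from 0 to 44.2 in astrocytes, so neurons overlapped with oligodendrocytes and nearly met astrocytes. Within control mice it was higher in neurons than in oligodendrocytes in 8 of 8 mice (2.06, SE 0.29, adjusted p = 1.36e-10, edgeR) and than in astrocytes in 8 of 8 (2.02, SE 0.33, adjusted p = 5.14e-08). Scg5, which keeps Pcsk2 from acting too early, stood at 143 to 285 CPM in neurons (median 200.1) and at 0 to 122 in oligodendrocytes. Scg5 in neurons was higher by 1.36 (SE 0.19, adjusted p = 2.17e-10, edgeR) than in oligodendrocytes, by 1.92 than in astrocytes and by 2.87 than in endothelial and vascular cells. The control mice showed this direction for Scg5 in 8 of 8, 8 of 8 and 9 of 9 mice.

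The low levels of the members in glia can be read against the neuronal markers there. Pooled over mice, oligodendrocytes held 19.5% of the neuronal level of Chga, 28.1% of Chgb, 32.4% of Scg2, 39.6% of Scg5, 49.0% of Scg3 and 8.85% of Vgf, beside 18.9% of the neuronal markers. In astrocytes the shares were 19.9% for Chga, 24.5% for Scg2, 26.6% for Chgb, 29.7% for Scg5 and 19.9% for Vgf, beside 17.5%. What part of the glial UMIs is RNA from neurons was not tested. The astrocyte share of Scg3, at 202%, stood far above that of the neuronal markers.

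Scg3 reversed the order. In astrocytes it ranged from 97.3 to 450 CPM over 23 mice, with a median of 215, and in neurons from 77.1 to 143 over 24 mice, with a median of 109. In 23 of 23 mice the astrocyte value was the higher one, although the ranges across mice overlapped. Scg3 in neurons was lower than in astrocytes by a log2 difference of -0.75 (SE 0.19, adjusted p = 0.000403, edgeR), a direction in which 19.7% of tested genes were called. Against oligodendrocytes, which held 19.6 to 92.8 CPM, astrocytes had more Scg3 in 23 of 23 mice, by 2.15 (SE 0.26, adjusted p = 9.66e-13, edgeR), where 19.4% of tested genes were called higher. The other 4 tested members did not pass in that glial contrast, with log2 differences from -0.56 (Scg5, adjusted p = 0.13) to 0.31 (Chga, adjusted p = 0.70). Endothelial and vascular cells held 97.9 CPM of Scg3 when all mice were pooled, near the 109 of neurons. The neuron excess of 0.59 over them (SE 0.25, adjusted p = 0.0317, edgeR) was lost with DESeq2 size factors, which gave -0.02 (adjusted p = 0.96).

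That choice of scaling mattered for the classes as a whole. With DESeq2 size factors the median log2 difference of all genes between neurons and astrocytes moved from 0.20 to -0.15, and the share of calls that were higher in neurons moved from 59.9% to 40.7%. Against endothelial and vascular cells the median moved from 0.10 to -0.49, against meningeal and Schwann cells from 0.00 to -0.45 and against oligodendrocytes from 0.13 to -0.17. The share of calls higher in neurons went in these 3 contrasts from 53.0% to 32.2%, from 50.3% to 28.8% and from 57.8% to 43.2%. In the contrasts of neurons with these classes, every member call other than Scg3 against endothelial and vascular cells held under both scalings. Scg3 stood 0.96 below the median of all genes in the astrocyte contrast under either one.

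Vgf had few UMIs, at 3.36 to 25.0 CPM in neurons (median 12.8), and did not pass the filter of the class and family contrasts. Pooled over mice it stood at 2.3 in astrocytes, 1.0 in oligodendrocytes, 1.8 in meningeal and Schwann cells and 1.5 in endothelial and vascular cells. No Vgf UMI was seen in microglia, whose depth allows a level of up to 14.5 CPM. In control mice neurons had more Vgf than astrocytes in 8 of 8 mice (exact sign-flip permutation p = 0.00781, two-sided), oligodendrocytes in 7 of 8 (0.0156), endothelial and vascular cells in 9 of 9 (0.00391) and meningeal and Schwann cells in 8 of 9 (0.0313). Adjusted by Benjamini-Hochberg over the 7 exact tests made for Vgf, these p-values were 0.0273, 0.0273, 0.0273 and 0.0365. Depth was low outside neurons: control mice had 31555 to 157158 UMIs in astrocytes, against 297249 to 2385810 in neurons. At such depth a mouse can lack a Vgf UMI even at the neuronal level, so these counts and p-values partly reflect depth. With control mice pooled, neurons had 12.1 CPM (Poisson interval 10.1 to 14.4, counting error only). The upper limits in the other classes tested were 5.93 to 9.05.

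Oligodendrocyte precursors showed pooled levels near or above those of neurons, but 1 mouse decided several of them. Among the 183 nuclei of that class, formalin replicate 4 held 11 of 12 Vgf UMIs, 20 of 36 Chgb UMIs and 12 of 19 Chga UMIs, and 1 nucleus held all 11, 17 and 12 of these. Without that mouse the pooled levels were 5.91 in place of 63.3 for Vgf, 94.5 in place of 190 for Chgb and 41.4 in place of 100.3 for Chga. Scg5 (195 without it) and Scg3 (130) stayed close to or above the neuronal level. Neuronal markers in this class summed to 42.8% of the level in neurons, and motor neuron markers reached 2615 CPM in 1 mouse. The fit of neurons against precursors held 3 control mice, and its calls are not used.

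**Figure D1:**
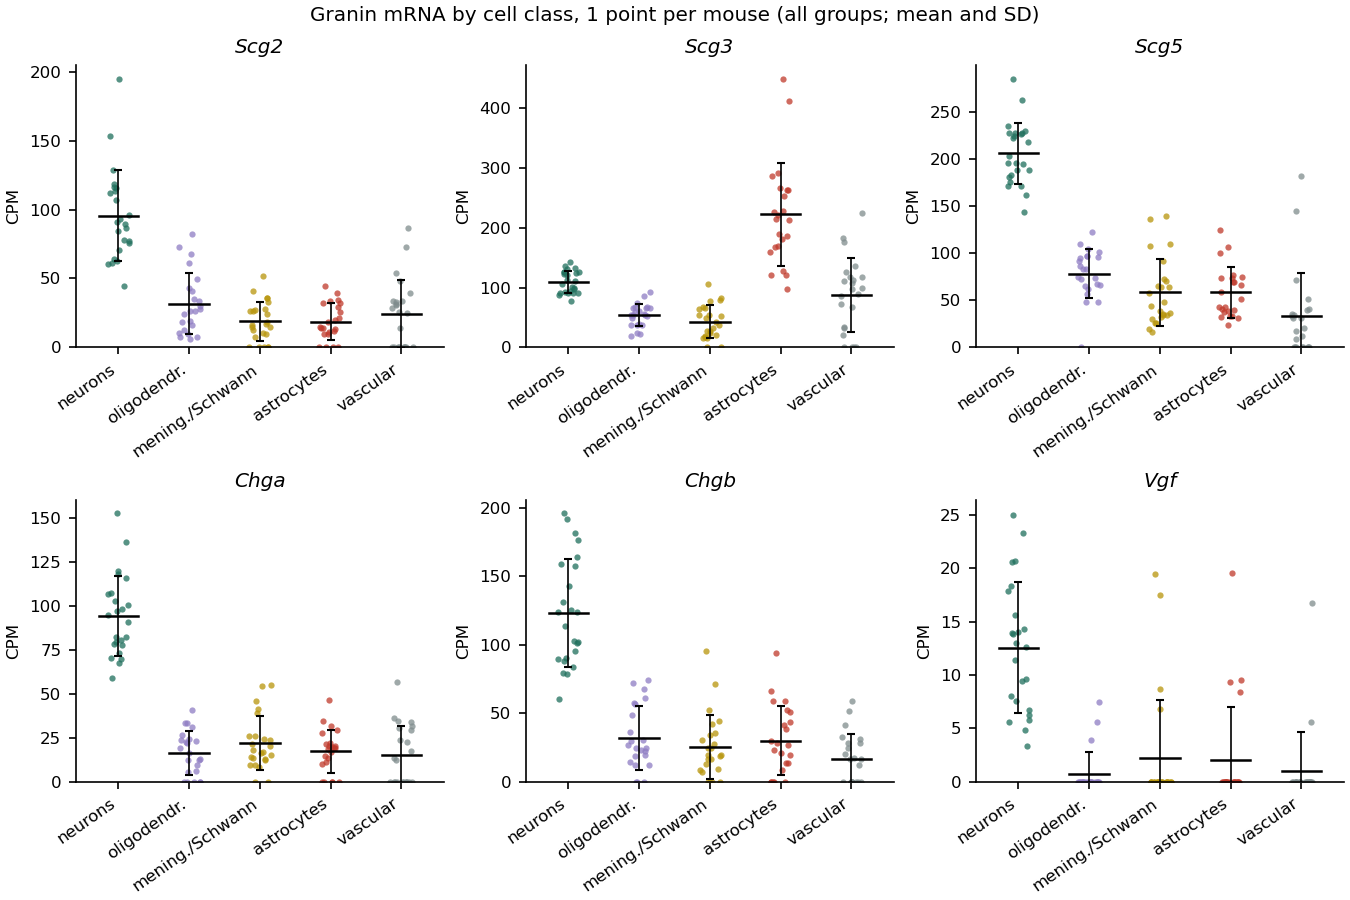
Levels of the 6 granin mRNAs (vertical axis, CPM) in the 5 large cell classes (horizontal axis), with 1 point for each mouse of any group and the mean and SD beside the points. Neurons are the highest class for 5 genes, and in the Scg3 panel the astrocyte points, from 97.3 to 450, lie above the neuronal ones in every mouse.

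The genes that make and release the vesicles were compared in the same contrast of neurons and astrocytes, in which 29.4% of all tested genes were called higher and 19.7% lower in neurons. Of 22 genes for vesicle biogenesis and membrane, 11 were tested and 8 were higher in neurons, with a median log2 difference of 2.17 against 0.20 for all genes. They included Ptprn (3.00) and Ptprn2 (2.51), membrane proteins of the vesicle, and Svop (3.30). Of 28 release genes 18 were tested and 14 were higher, with a median of 1.5, led by Unc13a (4.42), a priming factor. Of 10 genes for peptide processing 6 were tested: Pcsk2 (2.78), Pam (2.02) and Pcsk5 (1.63) were higher in neurons, and Cpe, the carboxypeptidase that trims the cut peptides and binds granins, was lower (-1.26, SE 0.16, adjusted p = 3.89e-12, edgeR). Scg3 and Cpe were thus both higher in astrocytes while the convertase Pcsk2 was higher in neurons.

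Among neurons, Chgb and Scg2 had higher means in the dorsal families, and in the mid inhibitory family MI, than in the ventral ones. Scg3 followed the inhibitory families, and no pair of families differed past the threshold for Scg5 or Chga. The 8 families gave 28 pairs in control mice, and 32 of the 140 tests of the 5 members passed, all for Chgb, Scg2 or Scg3. Over all genes 10.8% of such tests passed.

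Chgb was highest in the dorsal excitatory family DE, at 212 ± 84.5 CPM (SD, n = 9 control mice; range 93.1 to 333, median 199). The dorsal inhibitory family DI followed at 190 ± 63.8 (n = 9; range 104 to 300.0, median 210), and DE and DI were not distinguishable (adjusted p = 0.90, edgeR). The mid inhibitory family MI stood at 146 ± 117 and differed from DI (adjusted p = 0.0215, edgeR). The ventral families VI, VM, VE and VC lay between 46.4 ± 25.5 (VC, n = 9) and 64.1 ± 29.1 (VI, n = 8), next to ME at 64.8 ± 72.1 (n = 7), and no neighbours in this lower part of the order differed.

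Over the families DE and DI against VE, VI, VC and VM, weighted equally, Chgb was 201 in the dorsal and 54.9 in the ventral families. It was higher in the dorsal ones in 9 of 9 control mice, by 2.00 on the log2 scale (SE 0.16, adjusted p = 3.12e-20, edgeR), in a contrast where 15.6% of 3072 tested genes were called higher in dorsal. The 15 stimulated mice, which that fit did not use, showed it in 15 of 15 (210 against 55.4). In these counts of mice, each mouse entered with the families that had at least 5 of its nuclei, so the ventral side differed between mice. It was VC alone in control replicate 4 and rotarod replicate 1. In formalin replicate 6 it was VI alone, with 5 nuclei and 0 Chgb UMIs. Scg2 gave 145 and 46.1 CPM, higher in 9 of 9 control mice, with a log2 difference of 1.62 (SE 0.22, adjusted p = 1.08e-08, edgeR) and the same direction in 12 of 15 stimulated mice. Chga (-0.33, SE 0.17, adjusted p = 0.14), Scg3 (0.33, SE 0.16, adjusted p = 0.116) and Scg5 (0.21, SE 0.11, adjusted p = 0.17) did not pass in control mice.

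By family, Scg2 was highest in DI at 171 ± 79.5 (n = 9; range 104 to 358), then MI at 133 ± 59.8, DE at 119 ± 59.2 and the ventral family VC at 86.3 ± 72.3 (n = 9), and lowest in VE at 27.5 ± 27.2 (n = 8; range 0 to 67.7). No 2 neighbours in the Scg2 order differed. Scg2 and Chgb thus shared their dorsal excess, while the family at the top of the order was DI for Scg2 and DE for Chgb.

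Scg3 was highest in DI, at 155 ± 66.0 CPM (n = 9), followed by VI at 124 ± 58.8 (n = 8; adjusted p against DI = 0.0286, edgeR) and MI at 121 ± 69.9. The excitatory families were at the low end, with VE at 81.6 ± 26.8, DE at 73.2 ± 24.1 and ME at 72.9 ± 39.0. Excitatory families averaged 76.5 and inhibitory families 132, and the excitatory value was the higher one in 0 of 9 control mice. The log2 difference of excitatory minus inhibitory was -0.94 (SE 0.20, adjusted p = 0.000231, edgeR), where 4.82% of 3072 tested genes were called lower. In the stimulated mice, which the fit did not use, the excitatory value was higher in 2 of 15 (72.3 against 143). Scg2 was also higher in excitatory families in 0 of 9 control mice but missed the threshold (-0.83, SE 0.29, adjusted p = 0.061, edgeR), as did Chgb (-0.31), Scg5 (0.17) and Chga (-0.03). The stimulated mice showed less of a difference for Scg2, with the excitatory value higher in 5 of 15 (86.45 against 99.23 CPM).

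Scg5 was the most even member over the families with many nuclei, from 176 in VC to 225 in VE. Its highest mean, 359 ± 264 in ME (n = 7), came with the widest spread. Chga ran from 61.8 ± 22.8 in DI to 139 ± 62.8 in VM (n = 5), the opposite end of the order from Scg2, and no neighbours in either order differed. Vgf was highest in DI, at 22.0 ± 13.0, and stood at 6.45 ± 7.41 in DE. It was higher in DI than in DE in 7 of 9 control mice (exact sign-flip permutation p = 0.0156, two-sided; 0.0273 adjusted over the 7 tests of Vgf), a pair chosen after its levels were seen. For Vgf the dorsal excess depended on how nuclei were pooled: it was 5.59 CPM with families weighted equally (exact permutation p = 0.0234, adjusted 0.0328) and -1.16 with all nuclei of each side pooled.

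**Figure D2:**
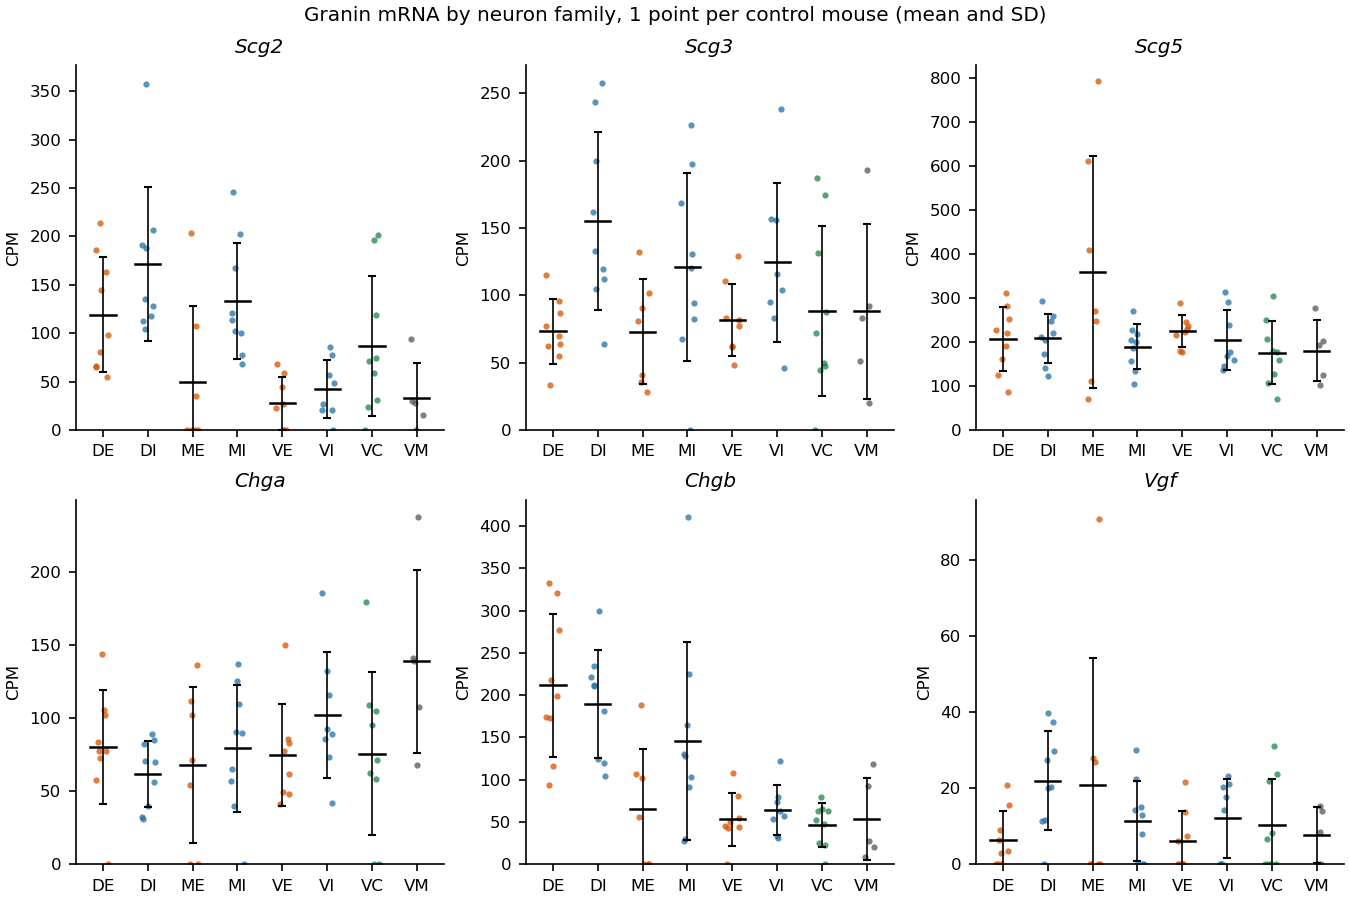
Levels of the 6 granin mRNAs (vertical axis, CPM) in the 8 neuron families (horizontal axis), with 1 point for each control mouse with at least 5 nuclei of the family and the mean and SD. Chgb and Scg2 are high in DE, DI and MI and low in the ventral families, with Scg2 in VC (86.3 ± 72.3) between them, Scg3 is highest in DI, and Scg5 and Chga show no such step.

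The processing and release genes were set beside the members in the same 2 contrasts. Between dorsal and ventral families, 5 of the 10 peptide-processing genes were tested and 4 were higher in dorsal, namely Pcsk5 (1.22), Pcsk6 (0.93), Pcsk2 (0.90) and Pam (0.71). The median of that list was 0.90, against -0.02 for all genes. Of 10 tested biogenesis genes 1 was higher (Ptprn2, 0.35) and 2 were lower (Rab27b, -0.80, and Vti1a, -0.23), with a median of -0.05, and 14.1% of all genes were called lower. Of 18 tested release genes 7 were higher, among them Unc13b (1.25), Syt1 (0.72) and Syt7 (0.70), and 2 were lower, among them Rph3a (-0.76), with a median of 0.18. Penk (1.38), the enkephalin precursor, and Nxph1 (0.40) were the only cargo genes tested, and both were higher in dorsal.

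Between excitatory and inhibitory families, where 3.97% of genes were called higher, the median over all genes was -0.06. None of 5 peptide-processing genes passed, and 1 of 10 biogenesis genes was higher (Ptprn2, 0.30). Of 18 release genes 1 was higher and 4 were lower (Rph3a, -0.58; Unc13a, -0.50; Syt1, -0.40; Cadps, -0.27), with a median of -0.11. Nxph1, a secreted ligand of neurexins, was lower by -1.84, the same direction as Scg3.

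Among the 43 populations, Chgb and Scg2 each peaked in a few dorsal ones. The pools of other dorsal populations given below also stood above the ventral families, although for Scg2 the DE pool still holds DE-9, its highest population. Single dorsal populations could lie below ventral ones. Without the mouse with the most UMIs, DE-8 held 21.3 CPM of Scg2 and 57.1 of Chgb, and VI-2 held 110 and 106. Values are pooled over all mice, with 95% Poisson intervals that cover counting error only, and carry no test. Chgb had a median of 107 CPM over the populations and reached 1114 in DE-7 (976 to 1266; 235 UMIs in 76 nuclei). The mouse with the most Chgb UMIs did not set this level, which was 1129 without it, and 17 of the 20 mice with DE-7 nuclei had a Chgb UMI there. In DE-7 58 of 76 nuclei (76.3%) had a Chgb UMI, and 42.1% did after each nucleus was thinned to 500 UMIs. In oligodendrocytes 3.94% of nuclei had one, and 1.81% after thinning, at a median depth of 1092 UMIs against 2386 in DE-7.

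DE-5 was next for Chgb, at 586 CPM (500.3 to 683; 165 UMIs), with a Chgb UMI in 22 of 24 mice. DI-1 (436, or 325 without the mouse with the most UMIs), DI-3 (371) and DI-2 (274) followed, and VM-1 was lowest (32.4). The 2 leading populations are excitatory and differ in cargo: DE-5 held Tac2 (466 CPM), Nmu (302) and Sst (252), and DE-7 held Cck (175) and Sst (99.6). Together, the 201 nuclei of DE-5 and DE-7 had 813 CPM of Chgb and the 1231 nuclei of the other DE populations had 117, against 48.2 in VE, 56.0 in VC, 64.9 in VI and 70.0 in VM pooled in the same way. Scg2, Chga, Scg3 and Scg5 showed no such excess: DE-5 and DE-7 stood at 128, 73.1, 65.0 and 161, against 137, 87.7, 80.4 and 212 in the other DE populations. Vgf stood at 10.2 (3.30 to 23.7, on 5 UMIs, all in DE-5) and at 5.55 (3.34 to 8.67).

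Scg2 had other leaders. DE-9 stood at 479 CPM (402 to 567; 136 UMIs, with a UMI in 19 of 23 mice), and DI-2 stood at 478 (366 to 614). DI-1 (344), MI-4 (298) and DI-3 (276) followed, and the lowest were VE-3 (22.7), VE-2 (25.4) and VI-5 (26.2). In DE-9 Chgb was 152 and Chga 106, so the high level there was that of Scg2 alone among these 3. The level of Scg2 in DE-9 was 592 in control mice alone, 419 without the mouse with the most UMIs and 368 after thinning each nucleus to 500 UMIs. These values rest on fewer UMIs, and whether they differ beyond counting error was not tested.

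In DI-1, DI-2 and DI-3, Scg2 and Chgb were high and Chga was low. Their 230 nuclei had 334 CPM of Scg2 and 375 CPM of Chgb, against 106 and 150 in the 683 nuclei of DI-4 to DI-9. Pooled Scg2 in the ventral families was between 31.6 (VE) and 78.2 (VC). Chga was at 25.3 (15.0 to 40.1; 18 UMIs) in DI-1 to DI-3 and at 82.1 (70.7 to 94.9) in DI-4 to DI-9. In 19 mice with at least 5 nuclei of both sets, Scg2 was higher in DI-1 to DI-3 in 17, Chgb in 17 and Chga in 2. Chga in DI-1 to DI-3 was near its level in oligodendrocytes (18.1). Scg3 (158 against 142), Scg5 (199 against 205) and Vgf (18.3 against 26.0) differed little between the sets. These sets were chosen after their levels were seen in the same mice, so the counts of mice are not independent support. In DI-1 to DI-3 only 9 of 24 mice had a Chga UMI, so the Chga count also reflects few UMIs.

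Scg3 varied less between populations than Chgb or Scg2. It was highest in MI-4, at 207 CPM (153 to 275), then in DI-2 (188) and DI-3 (172), and lowest in DE-8 (35.3) and VE-1 (43). Scg5 was highest in DE-6, at 396 (301 to 512), or 648 after thinning each nucleus to 500 UMIs, a population that held Nts, the neurotensin precursor (1052 CPM), and Penk (328). DI-1 (322), DE-9 (317) and DE-4 (303) followed, and DE-15 was lowest (103). Chga was highest in VI-1, at 154 (121 to 193), and lowest in DI-1, at 13.2 on 3 UMIs.

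Vgf was detected in 31 of the 43 populations and was highest in DI-7, at 62.1 CPM (36.8 to 98.2; 18 UMIs), and DI-8, at 43 (27.8 to 63.5; 25 UMIs). The 12 populations with no Vgf UMI allow levels of up to 5.75 to 41.0 CPM. These populations included DE-7 (14.2 by that count), where Chgb was highest. DI-7 also held 2609 CPM of Nxph1, against 476 over all neurons with a population name.

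**Figure D3:**
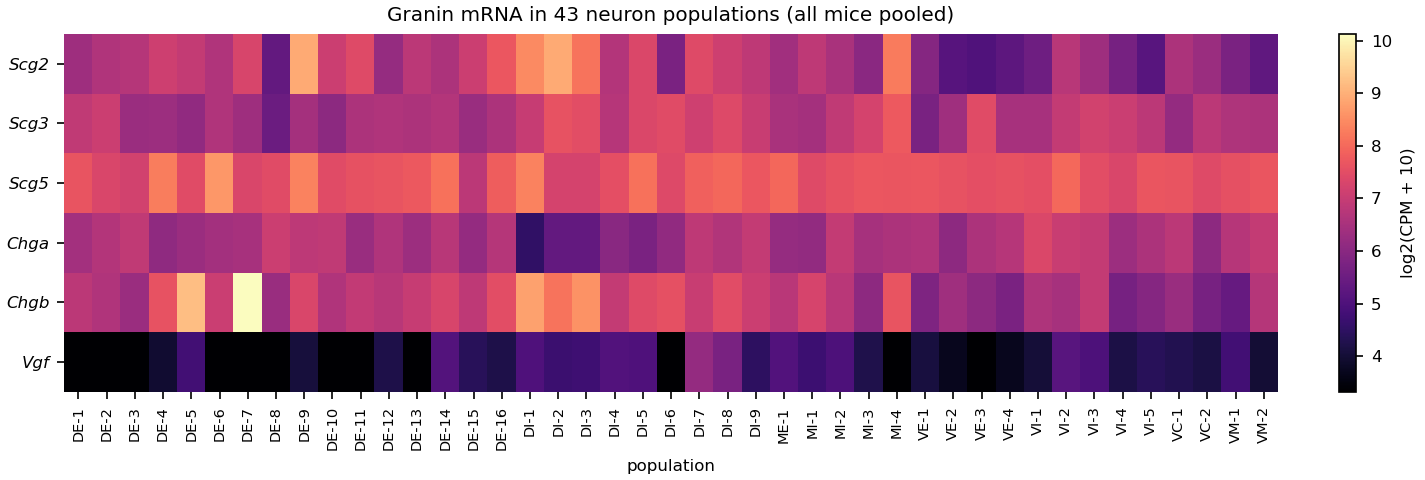
Levels of the 6 granin mRNAs (rows) in the 43 neuron populations (columns), all mice pooled, with the colour giving log2(CPM + 10). The brightest Chgb cells are DE-7 and DE-5, the brightest Scg2 cells are DE-9 and DI-2, and Chga is dark in DI-1, DI-2 and DI-3.

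Across the 43 populations the members did not vary as a block. The correlation of log2 levels (with 10 CPM added) was 0.65 between Scg2 and Chgb, and negative for Chga with Scg2 (-0.43), with Chgb (-0.44) and with Scg3 (-0.31). The other 11 pairs lay between -0.14 and 0.26. These values describe populations that share mice and libraries and differ in depth, and no p-value is given. Among 6479 genes with at least 20 CPM in neurons, the genes most like Chgb were Trpm3 (0.80), an ion channel gene, Eepd1 (0.66) and then Scg2 itself. The genes most like Scg2 were Stac (0.68), Hoxb3 (0.67) and Gpm6a (0.66), followed by Chgb. The order depends on the value added before the logarithm: with 1 CPM added in place of 10, Stac ranked 21 for Scg2 and Pdgfc ranked 8 for Scg5, while Trpm3 stayed first for Chgb. Scg3 was most like Pax8 (0.70), Fam163b (0.67) and Pax2 (0.66), and Gad2 (0.63), a gene of GABA synthesis, was among its first 5. The lists for Chga (Miat, 0.68; Igsf9b, 0.65) and Scg5 (Pdgfc, 0.56; Itm2b, 0.55) held no other member.

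**Figure D4:**
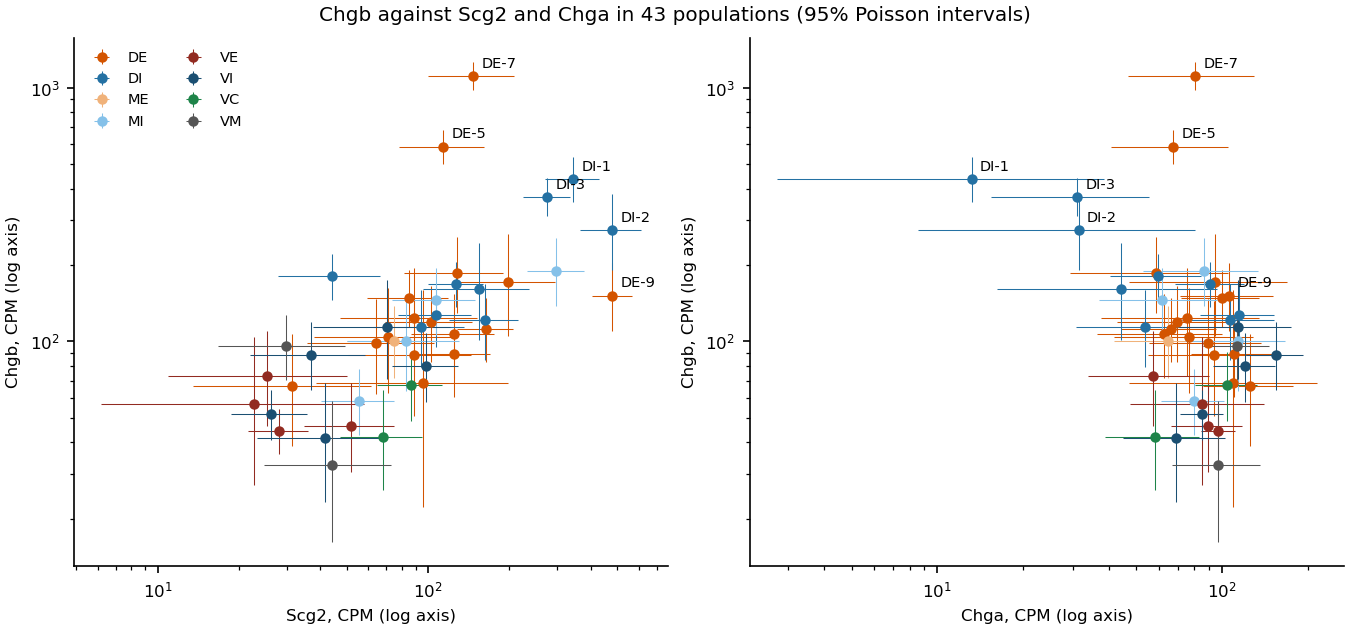
Chgb level (CPM, log axis) of each of the 43 populations plotted against Scg2 and against Chga, coloured by family, with 95% Poisson intervals. Populations with more Scg2 have more Chgb (correlation 0.65), and in the Chga panel DI-1, DI-2 and DI-3 lie far to the low end of Chga at high Chgb (correlation -0.44).

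No member passed the edgeR threshold over all genes for either stimulus. Neurons of all types were summed per mouse and 9103 genes were tested with edgeR. None was called for formalin against control (0%; 766 at an unadjusted p under 0.05 and 0 by DESeq2) or for rotarod against control (0%; 782 and 14), and 196 (2.15%) were called for formalin against rotarod. That last count was 4 with the formalin pairs merged, and no member was called under either fit. A sum over all neurons also varies with the mix of neuron types in each mouse, so values within families are given below.

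Scg3 came closest. The rotarod mice had 77.1, 91.0, 90.4, 91.7 and 86.9 CPM of Scg3 in neurons. Control mice ranged from 92.8 to 135 (median 113), and formalin mice from 90.9 to 143 (median 124). All 5 rotarod mice lay below all 9 control mice, as happened for 14 of 6479 genes (0.216%), while the lowest formalin mouse lay just below the highest rotarod mouse. The mean was 87.4 ± 6.04 in rotarod, 112 ± 16.6 in control and 118 ± 16.1 in formalin mice (SD, n = 5, 9 and 10). The edgeR log2 difference of rotarod minus control was -0.33 (95% interval -0.58 to -0.08, adjusted p = 0.43), and that of formalin minus rotarod was 0.31 (0.06 to 0.57, adjusted p = 0.196). Exact two-sided permutation over samples gave p = 0.00799 and p = 0.00233 for these comparisons, unadjusted, among 18 such tests over the 6 members. With the formalin pairs merged, formalin stood at 118 ± 6.55 (SD, n = 5), the permutation p against rotarod was 0.00794, the smallest that 5 against 5 samples can give, and the edgeR difference was 0.30 (adjusted p = 0.33). One other comparison of the 18 was under 0.05, Chga in formalin against rotarod (p = 0.047, exact permutation, or 0.0556 with the pairs merged; edgeR 0.24, adjusted p = 0.45).

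Several measures were set beside the low Scg3 of the rotarod mice, and their part in it was not tested. Median UMIs per neuron were 957 to 3928 in rotarod and 1331 to 3625 in control mice. Astrocyte markers in neurons were 93.7 to 219 CPM in rotarod mice and 98.1 to 231 in control mice, against 4455 in astrocytes, and the inhibitory share of the named neurons was 41.2% to 68.8% and 43.2% to 71.8%. In all of these the groups overlapped. Within inhibitory families Scg3 had a median of 115 in rotarod, 124 in control and 142 in formalin mice, and within excitatory families 51.0, 70.1 and 90.9. In neurons with no population name it was 94.0, 125 and 131. Control replicate 7 stood apart there, at 402 CPM, with the other control mice between 103 and 184. Those 86 nuclei held 130 of the 323 neuronal Scg3 UMIs of that mouse, which had the highest control value in neurons.

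In astrocytes, the class with the most Scg3, the rotarod mice had 128, 215, 97.3, 168 and 120 CPM, from 3 to 17 UMIs each. Control mice ranged from 160 to 263 and formalin mice from 121 to 450. The groups overlapped, and formalin minus rotarod was 0.74 (SE 0.30, adjusted p = 0.27, edgeR).

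The other members showed overlapping groups in neurons. Scg2 ranged from 62.8 to 116 in control and from 60.6 to 195 in formalin mice, and stood at 129, 44.2, 118, 84.1 and 75.8 in rotarod mice. Chgb ranged from 83.8 to 177 and from 60.6 to 196, and stood at 159, 88.4, 143, 114 and 101. Neither showed a group apart, and the log2 differences from control were 0.03 and -0.05 for formalin and -0.07 and -0.02 for rotarod. Their 95% intervals reached from -0.54 to 0.45 over these 4 comparisons, so a change of that size in either direction was within the error.

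Scg5, the chaperone of Pcsk2, ranged from 162 to 263 in control and from 143 to 285 in formalin mice, and stood at 195, 183, 196, 171 and 181 in rotarod mice. Chga ranged from 67.6 to 120 and from 70.1 to 153, and stood at 82.3, 77.6, 59.2, 103 and 73.4. Vgf, the member known to respond to activity, ranged from 3.36 to 25.0 and from 4.85 to 23.3, and stood at 20.6, 8.03, 15.6, 5.58 and 9.40. For Vgf the log2 differences were 0.04 (95% interval -0.54 to 0.61) for formalin and -0.32 (-1.02 to 0.39) for rotarod against control, which left changes of up to about these sizes undetectable at 11.6 CPM.

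**Figure D5:**
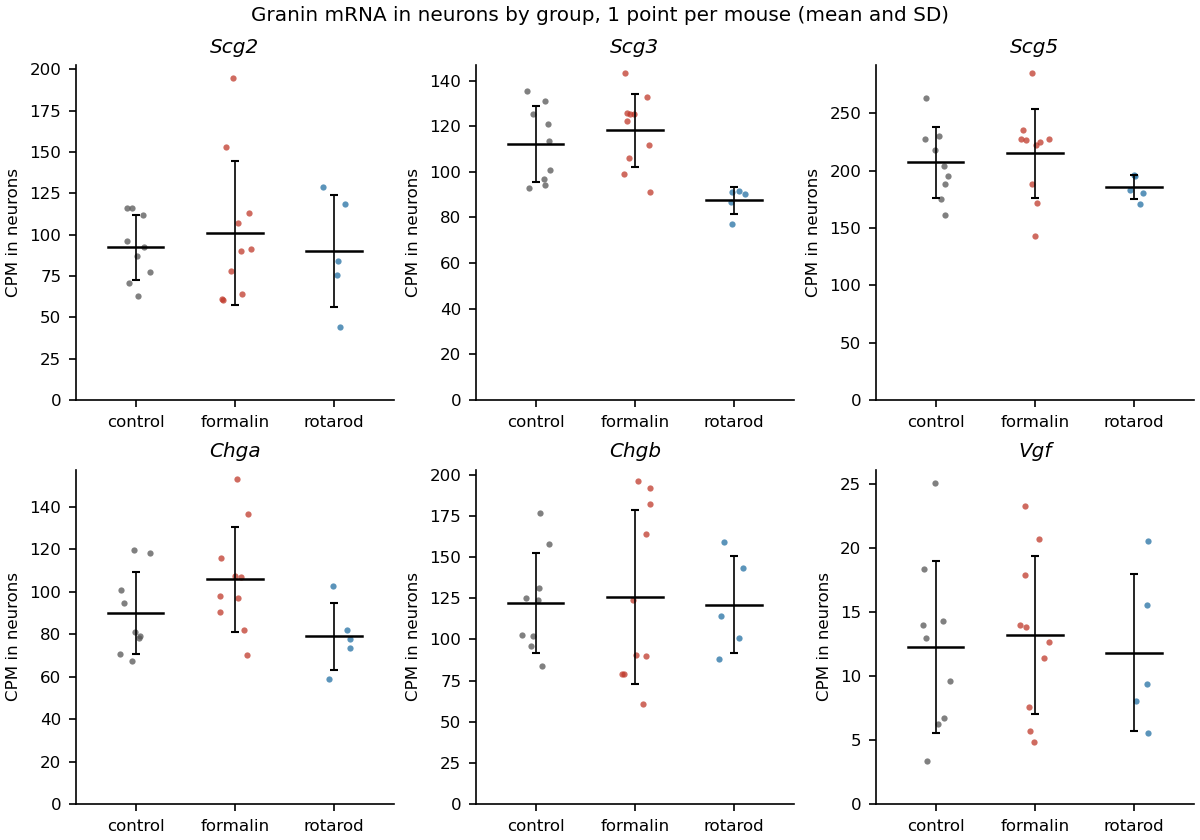
Levels of the 6 granin mRNAs in neurons (vertical axis, CPM of neuronal UMIs) in the control, formalin and rotarod groups, with 1 point per mouse and the mean and SD. In the Scg3 panel the 5 rotarod mice (77.1 to 91.7) lie below the 9 control mice (92.8 to 135), and in the other panels the groups overlap.

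Within families, 5 had members that passed the filter, which gave 15 comparisons and 63 member tests. None passed, against 0.0203% of all such tests, and 3 had an unadjusted p under 0.05, with Scg3 in VE for formalin against rotarod the smallest (0.91, adjusted p = 0.478, edgeR). In the other classes, 9 tests were possible (Scg3 in astrocytes, and Scg5 in oligodendrocytes and in meningeal and Schwann cells), and none passed, against 0.180% of all tests. The dorsal excess itself did not differ by stimulus past the threshold. For Chgb, dorsal minus ventral was 144 ± 76.3 CPM in formalin, 154 ± 20.2 in rotarod and 133 ± 73.2 in control mice, with all nuclei of each side pooled. For Scg2 it was 100.3 ± 96.0, 47.2 ± 67.7 and 99.4 ± 46.7, and the smallest of the 12 exact permutation p-values was 0.114 (Scg2, rotarod against control).

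The rapid activity genes were set beside the members as a measure of recent activity. None of the 12 on the list, which includes Fos and Arc, passed the filter in neurons. Their summed level was 10.1 to 45.5 CPM in control mice (median 28.6), 26.7 to 62.1 in formalin mice (median 51.1) and 31.2 to 51.4 in rotarod mice (median 41.5), with overlapping ranges. Of the vesicle genes, none was called for either stimulus against control. For formalin against rotarod, where 2.15% of all genes were called, Cyb561 (-1.13), Pick1 (0.76) and Rims2 (-0.51) passed. None of these 3 passed with the formalin pairs merged (adjusted p = 0.0767, 0.106 and 0.126, edgeR).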

How the data were processed

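The deposited table holds raw UMI counts (18000 barcodes, 32962 genes), and barcode names carry the mouse, per the file headers. A second deposited table gives the class and population of each barcode. The submitters' processing notes name the builds mm10 and GRCm38. The sources used here do not name the aligner, the annotation used for counting or the treatment of introns and strand. The annotation's 3818 discarded nuclei and 757 nuclei without a label were left out of the comparisons. Doublets were not called again.

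Counts were summed per mouse and class (at least 10 nuclei) or family (at least 5) and divided by all UMIs of those nuclei to give CPM (UMIs per 1000000). Sums were tested with edgeR 4.0.16 in R 4.3.3 (TMM scaling, its low-count filter, robust quasi-likelihood), adjusted by Benjamini-Hochberg over all tested genes at 0.05. One fit held all 3 groups for the stimulus, while the contrasts of classes and of families used control mice only and had a block for each mouse. Whether each mouse gave 1 library is not stated beyond the labels, so p-values measure the spread between these samples. Exact permutation tests ran over mice with scipy 1.17.1. Alternatives were DESeq2 1.42.0 or its size factors, no filter, a minimum of 20 nuclei, leaving out mice, merged formalin pairs and a replicate block. Both edgeR fits were tested on simulated data with changed genes, but the outcome is not given here and no smallest detectable change is drawn from it. Intervals are 95% Poisson and cover counting error only. Populations, thinned to 500 UMIs per nucleus for shares, were described without a test.

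The members, the gene lists and the contrasts were chosen with earlier results of these data known. Lists name up to 4 called genes with the lowest p, populations are named by level, and the 5 genes most like each member by correlation over populations. The contrast of astrocytes with oligodendrocytes, the population values without the leading mouse, the permutations with merged formalin pairs and the unpaired fit of formalin 1 to 5 with rotarod 1 to 5 were added after seeing the data. Promoters came from a RefSeq table, which held 5 of the 6 members.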

Additional observations from a re-analysis of the deposited data

Results flagged for a closer look

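Groups of 4 to 10 mice were searched for a mouse far from the others, in 36 groups of a member and a class, and chance alone flags about 1 in 20 groups. In astrocytes Scg5 stood at 124.8 CPM in formalin replicate 7 and at 100.4 in rotarod replicate 5, on 9 and 5 UMIs, each above the other mice of its group. Vgf in astrocytes stood at 8.44 in control replicate 7 and at 19.6 in rotarod replicate 2, each on 1 UMI, with every other mouse of the group at 0, so these values show only that 1 UMI was seen. No member was flagged in neurons.

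The nuclei outside the 7 classes also held granin UMIs. The 3818 nuclei discarded by the authors had 78.1 CPM of Scg2, 130.2 of Scg3, 187.7 of Scg5, 57.8 of Chga, 112.1 of Chgb and 9.58 of Vgf, and their neuronal markers summed to 57.3% of the level in neurons. The 757 nuclei without a label had 68.0 CPM of Scg2, 237.3 of Scg3, 94.9 of Scg5, 56.9 of Chga, 71.2 of Chgb and 7.91 of Vgf. Their Scg3 was at the level of astrocytes (221), beside astrocyte markers of 2733 and oligodendrocyte markers of 14383 CPM.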

How the results depend on the processing

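No member was called for any stimulus comparison in neurons under any alternative run, and every call of Chgb, Scg2, Scg5 and Chga in neurons against the 4 large classes, and of Chgb and Scg2 in dorsal against ventral families (log2 1.79 to 2.09 and 1.61 to 2.02), was kept. Scg3 stayed lower in excitatory families, from -0.78 to -1.11. With all 24 mice, Scg3 (0.30) and Chga (-0.28) also passed between dorsal and ventral families, for 4 members in place of 2, and without the low-count filter Scg2 passed between excitatory and inhibitory families (-0.90). Scg3 against endothelial cells reversed with DESeq2 size factors (-0.016). The 1 call against precursors (Chga) was lost under 3 alternatives, to 0. The causes were not tested.

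The counts of called genes moved more. Without the low-count filter they were 31 for formalin and 43 for rotarod against control in neurons, 52, 21 and 41 in families for these and for formalin against rotarod, 19 and 31 in other classes for the first 2, 4630, 6870, 6445 and 5229 for neurons against astrocytes, endothelial cells, meningeal cells and oligodendrocytes, and 1372 for dorsal against ventral families. Rotarod against control gave 1 with these 2 groups alone, 14 with DESeq2 and 3 without the 3 control mice whose labels end in cx. Without those mice the counts were 2577 against endothelial cells, 226 against precursors (127 with size factors), 500 for dorsal against ventral and 120 for excitatory against inhibitory families, the last being 522 with all 24 mice. Formalin against rotarod gave 4 with formalin pairs merged.

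Leaving out 1 mouse gave 0 to 1 for formalin against control (1 without formalin replicate 5), 0 to 11 for rotarod against control (11 without control replicate 2 and 7 without control replicate 9) and 60 to 239 for formalin against rotarod (60 without rotarod replicate 3). The replicate numbers of formalin and rotarod did not pair the samples (correlations -0.035, 0.075, -0.13, 0.070 and -0.087). The fit of mice 1 to 5 with the replicate block called 31 genes and the same mice without pairing 45, with no member in either.

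Small stimulus differences changed sign. Without the low-count filter Scg2 was -0.038 and Vgf -0.030 for formalin against control. Without the cx mice Scg3 was 0.074, Scg5 0.023 and Chgb 0.11 for formalin, and Scg2 0.048, Chga 0.026 and Chgb 0.13 for rotarod; Chgb for rotarod was 0.00054 with DESeq2. Leaving out 1 mouse, the ranges for formalin against control, formalin against rotarod and rotarod against control were -0.14 to 0.058, -0.12 to 0.070 and -0.13 to 0.087 for Chgb and -0.093 to 0.10, -0.067 to 0.24 and -0.21 to 0.098 for Scg2. For formalin against control they were -0.051 to 0.045 for Scg3, -0.048 to 0.036 for Scg5 and -0.12 to 0.14 for Vgf. Of the population levels, Scg2 in DE-9 (592 in control mice, 368 thinned), Scg5 in DE-6 (648 thinned) and Chga in VI-1 (116 in control mice) moved beyond the counting intervals of the pooled levels. The thinned and control values rest on fewer UMIs and have a counting error of their own. Whether they differ beyond that error was not tested. Neurons against microglia could not be fitted, with fewer than 3 control mice holding 10 nuclei. Depth limits Vgf most, and glial levels of single mice rest on few UMIs.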
